A study of Mus musculus with 32 samples.

Results

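Epas1, Egln3, Ldha and Car12 are genes of the cellular response to low oxygen, and their transcripts were compared between Nox4 knockout mice and a wild-type RNA pool in 4 tissues, namely pancreas, brain, muscle and kidney. They were taken by gene symbol: 4 of the 9030 symbols that the array's annotation names, each measured by 1 probe of 20794. The 4 genes were selected on their measured knockout-to-pool ratios in these tissues, so those ratios are described here without a test.

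In well-oxygenated cells, prolyl hydroxylases of the Egln family mark the alpha subunits of the hypoxia-inducible factors (HIF) for destruction through the von Hippel-Lindau protein. When oxygen falls, the alpha subunits escape this mark, pair with Arnt and bind short DNA elements near genes for glycolysis, acid export, vessel growth and red cell production. Epas1 encodes HIF-2 alpha, which in kidney is best known for driving erythropoietin, and Egln3 encodes one of the hydroxylases and is itself induced by HIF. Ldha encodes the lactate dehydrogenase subunit that favours the conversion of pyruvate to lactate, and Car12 encodes a membrane carbonic anhydrase that helps control the pH outside the cell.

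The knockout animals were male C57BL/6 mice, homozygous for the Nox4 mutation (-/-) and aged 17 weeks. Nox4 encodes an NADPH oxidase that makes hydrogen peroxide. Each of 4 animals gave all 4 tissues, and each tissue sample was hybridised on 2 cDNA arrays with the dyes exchanged, 32 arrays in all. The second channel held a reference of pooled wild-type RNA, also from male C57BL/6 mice aged 17 weeks. The design text and the labels put 4 animals in this pool and the labelling protocol puts 6. How the mutation was made, and whether it acts in every cell, is not given in the sources used here. The pool serves as 1 control sample, so every error given here omits how far wild-type animals differ among themselves.

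All values are log2 ratios, likely of knockout over pool, averaged over the 2 arrays of an animal: 0 means equal levels, and a value below 0 means less transcript in the knockout animal. Arrays carried 19815 to 20684 values, with medians between −0.07 and 0.05. The 2 arrays of an animal correlated across probes at r from −0.58 to 0.06, and arrays of different animals with the same dye orientation at r from 0.03 to 0.48. Whether the Cy3 arrays were deposited with their ratios already turned is not settled, so each gene is also given by dye orientation and with the Cy3 ratios turned. Directions stated without that addition are those of the values as deposited. Nox4 itself has 0 named probes of the 20794, and its transcript could not check the labels. A ratio of a tissue to the same tissue cannot show the identity of the tissue through marker genes. In whole tissue, fewer cells of a type and less RNA per cell cannot be told apart.

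Because Egln3, Ldha and Car12 are known as targets of these factors, the 250 bases before their annotated start sites are shown, from the RefSeq annotation of assembly GRCm38.p6, 5′ to 3′ on the strand of the gene. Capitals mark the core of the hypoxia response element as searched, ACGTG or GCGTG on either strand. Epas1 is named only.
Ldha, chr7:46845554-46845803, plus strand: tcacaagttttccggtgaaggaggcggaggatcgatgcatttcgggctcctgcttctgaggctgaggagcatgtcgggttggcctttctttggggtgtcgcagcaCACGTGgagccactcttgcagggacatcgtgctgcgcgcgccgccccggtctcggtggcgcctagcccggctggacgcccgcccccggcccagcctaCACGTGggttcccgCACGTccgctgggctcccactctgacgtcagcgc
Egln3, chr12:54203875-54204124, minus strand: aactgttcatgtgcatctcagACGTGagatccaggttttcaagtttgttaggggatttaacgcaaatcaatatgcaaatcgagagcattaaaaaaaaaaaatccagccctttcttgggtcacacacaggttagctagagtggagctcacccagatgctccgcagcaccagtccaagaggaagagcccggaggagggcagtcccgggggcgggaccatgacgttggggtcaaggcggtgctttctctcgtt
Car12, chr9:66713436-66713685, plus strand: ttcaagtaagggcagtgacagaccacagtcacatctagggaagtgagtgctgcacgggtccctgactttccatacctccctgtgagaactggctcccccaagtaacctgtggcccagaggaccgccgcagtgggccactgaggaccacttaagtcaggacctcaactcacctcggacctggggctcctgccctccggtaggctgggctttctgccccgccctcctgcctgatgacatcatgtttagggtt
The Ldha promoter held 7 matches in its window of 300 bases (250 before and 50 after the start), 5 of them in the stretch shown. The hexamer CACGTG occurred there 2 times, and each copy counts on both strands. As many matches were found in 0.301% of the 32851 annotated windows of that length. A second annotated Ldha start site, at chr7:46846832-46847081 for its 250 upstream bases, had 2 matches in its window, which 20.6% of windows reached. Egln3 had 1 match, 229 bases before its start, and 43.8% of windows held at least 1 (ACGTG in 19.6%, GCGTG in 32.4%). Car12 had 0 in this window.

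Epas1 was lower than the pool in kidney and higher in muscle. In kidney the 4 animals stood at −0.45, −0.09, −0.13 and −0.50 on the log2 scale. All 4 lay below 0, animals 1 and 4 far lower than animals 2 and 3. The mean was −0.29 ± 0.21 (SD, n = 4; SE of limma 0.08), or 0.816-fold of the pool, and all 8 kidney arrays lay below 0, where 0.899% of genes did so. The dye orientations gave nearly the same value, −0.28 with the knockout in Cy5 and −0.30 with it in Cy3. In muscle the animals stood at 0.08, 0.21, 0.20 and 0.47, all above 0. Their mean was 0.24 ± 0.17 (SD, n = 4; SE 0.08), or 1.18-fold, with 7 of 8 arrays above 0 and means of 0.14 in Cy5 and 0.34 in Cy3. All 4 animals lay above 0 in muscle for 6.85% of genes and below 0 in kidney for 9.85%. In brain the animals stood at 0.12, −0.30, −0.30 and −0.17, so that animal 1 alone lay above 0 (mean −0.16 ± 0.20, SD, n = 4). In pancreas they stood at 0.10, 0.12, −0.08 and 0.14 (mean 0.07 ± 0.10, SD, n = 4), and the sign there followed the dye, at −0.08 in Cy5 and 0.22 in Cy3.

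With the Cy3 ratios turned, which would apply if they were deposited as Cy5 over Cy3, Epas1 was at −0.15 in pancreas, −0.10 in muscle, 0.01 in kidney and 0.05 in brain. The kidney animals then lay on both sides of 0, at −0.07, 0.09, 0.02 and 0.00, and all 4 pancreas animals lay below it.

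The order of Epas1 from low to high was kidney, brain, pancreas and muscle. Kidney and brain overlapped, as did brain with pancreas and pancreas with muscle. The kidney animals lay below all muscle animals, a difference of −0.53 ± 0.12 (limma SE) and within the 4 mice it ran from −0.97 to −0.30. Such a separation in that direction was met by 3.21% of genes. They also lay below all pancreas animals, at −0.36 ± 0.12, as 1.90% of genes did. The tissues come from the same animals and each was set against a wild-type pool, so these differences share animals. The order with the Cy3 arrays turned was pancreas, muscle, kidney and brain. Kidney then overlapped muscle and lay above all pancreas animals, so both separations rest on the orientation as deposited.

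**Figure D1:**
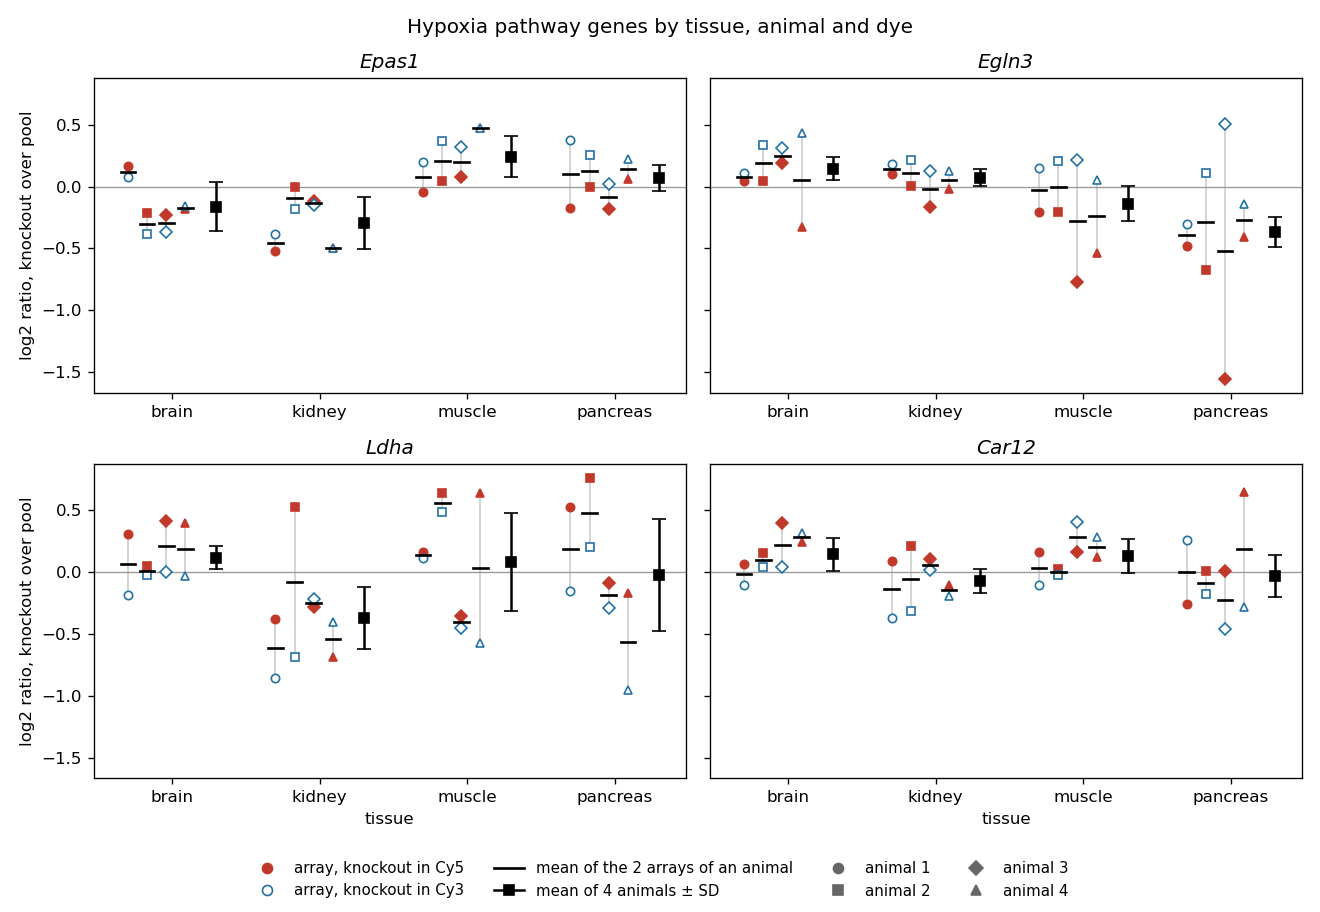
Log2 ratio of knockout over pool (vertical axis) for the 4 genes in each tissue (horizontal axis); filled symbols are arrays with the knockout in Cy5, open symbols arrays with it in Cy3, shapes mark the animal, short bars the mean of its 2 arrays and black squares the mean of 4 animals ± SD. Epas1 lies below 0 on all 8 kidney arrays, whereas the filled and open symbols of Egln3 in muscle lie on opposite sides of 0.

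Of the other HIF subunits on the array, Hif1a, the alpha subunit made in most cells, was at −0.01, −0.08, −0.17 and −0.09 in the kidney animals, below 0 in 4 of 4. Its kidney mean was −0.09 ± 0.07 (SD, n = 4), nearer 0 than that of Epas1, and came from −0.17 in Cy5 and 0.00 in Cy3. Hif3a, an alpha subunit that can restrain the others, was at −0.06, −0.04, −0.11 and −0.05 in kidney (mean −0.06 ± 0.03) and at 0.07, 0.05, 0.04 and 0.08 in brain (mean 0.06 ± 0.02). All 4 brain animals thus lay above the pool for Hif3a and all 4 kidney animals below it, though 2 arrays in each tissue lay on the other side. In muscle, Hif1a was at −0.07 ± 0.10 and Hif3a at 0.01 ± 0.02 (SD, n = 4), against 0.24 for Epas1. In pancreas they were at −0.04 ± 0.09 and −0.09 ± 0.14.

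Epas1 is abundant in endothelium, so endothelial markers are given beside it. Of 13 such genes measured, 9 lay below 0 in kidney with a median of −0.01, and the medians of the 4 animals were −0.05, −0.00, 0.01 and −0.00. In muscle 8 of 13 lay below 0 with a median of −0.04, where 41.6% of all genes lay above 0. But 3 lay above 0 in all 4 animals and 0 lay below in all 4, against 6.85% and 12.0% of all genes. Of the 13, 2 had an unadjusted limma p under 0.05, both above the pool, as had 3.61% of all genes. The median distance from 0 of the 13 in muscle was 0.161, against 0.0835 over all genes, so their values spread to both sides, and their part in the Epas1 value was not tested. Of 7 measured markers of the proximal tubule, the main epithelium of the kidney cortex, 6 had a kidney mean below 0, where 51.5% of all genes lay above 0. For 4 of the 7 all animals lay below 0, and 3 of the 7 had an unadjusted limma p under 0.05 below the pool, against 9.85% and 5.00% of genes. Their median was −0.06, with animal medians of −0.24, −0.13, −0.05 and −0.01. Slc22a6, an organic anion transporter of that segment, stood lowest at −0.33 ± 0.05 (limma SE, n = 4). Of the 2 animals with the lowest Epas1 values, animal 1 (−0.45) had the lowest proximal tubule median and animal 4 (−0.50) the one nearest 0. The part of these cells in the Epas1 value was not tested.

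Egln3 was lower than the pool in pancreas. The 4 pancreas animals stood at −0.39, −0.28, −0.52 and −0.27, all below 0, as were 5.15% of genes in that tissue. The mean was −0.37 ± 0.12 (SD, n = 4; SE 0.08), or 0.775-fold. The 2 dye orientations did not give the same value: −0.48, −0.67, −1.55 and −0.41 on the arrays with the knockout in Cy5, and −0.30, 0.11, 0.50 and −0.14 with it in Cy3. The mean of −0.37 thus came from a Cy5 mean of −0.78 and a Cy3 mean of 0.04, and animal 3 had both the lowest and the highest array. In brain the animals stood at 0.08, 0.19, 0.25 and 0.05 (mean 0.14 ± 0.09, SD, n = 4), with all 4 animals and 7 of 8 arrays above 0, and 8.86% of genes had all 4 brain animals above 0. In kidney they stood at 0.14, 0.11, −0.02 and 0.05 (mean 0.07 ± 0.07). In muscle they stood at −0.03, −0.00, −0.28 and −0.24 (mean −0.14 ± 0.14), all below 0 as for 12.0% of genes. All 4 muscle arrays with the knockout in Cy5 lay below 0 (mean −0.43), and all 4 with it in Cy3 lay above 0 (mean 0.16).

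From low to high, Egln3 ran pancreas, muscle, kidney and brain. Neighbours in that order overlapped in each case. Brain lay above pancreas without overlap (0.51 ± 0.09, limma SE; 1.93% of genes), as did kidney (0.44 ± 0.09; 1.53%). Brain also lay above muscle (0.28 ± 0.09; 4.21%). Within each of the 4 mice, pancreas was lower than brain by 0.325 to 0.772 and lower than kidney by 0.325 to 0.531. The value in Cy5 was below that in Cy3 in all 4 tissues, by 0.82 in pancreas, 0.58 in muscle, 0.31 in brain and 0.18 in kidney. A gap of one sign in all 4 tissues was common on these arrays: 25.6% of genes had Cy5 below Cy3 throughout. Averaging both arrays cancels such a gap only if all deposited ratios run the same way. With the Cy3 arrays turned, Egln3 was at −0.41 in pancreas, −0.29 in muscle, −0.09 in kidney and −0.16 in brain, below 0 in all 4 animals of each tissue. Brain then overlapped kidney, pancreas and muscle, and its mean differed from that of kidney by −0.06. Kidney lay above all muscle animals, by 0.20. Pancreas was then lower than kidney in each of the 4 mice, with overlap, and the share of genes with such an order is not given here.

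The 2 related hydroxylases varied far more than Egln3. Egln1, the main oxygen sensor of most cells, stood in pancreas at 0.18, 1.05, −2.08 and 0.31, so that its mean of −0.14 had an SD of 1.35 (n = 4). In muscle, 3 animals had both arrays and ranged from −0.60 to 1.03. Egln2 ranged in brain from −0.73 to 0.98. In kidney 3 animals lay between −0.03 and 0.09 and animal 4 at −1.98, from −0.17 in Cy5 and −3.79 in Cy3. Neither probe had all animals on the same side of 0 in any tissue.

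**Figure D2:**
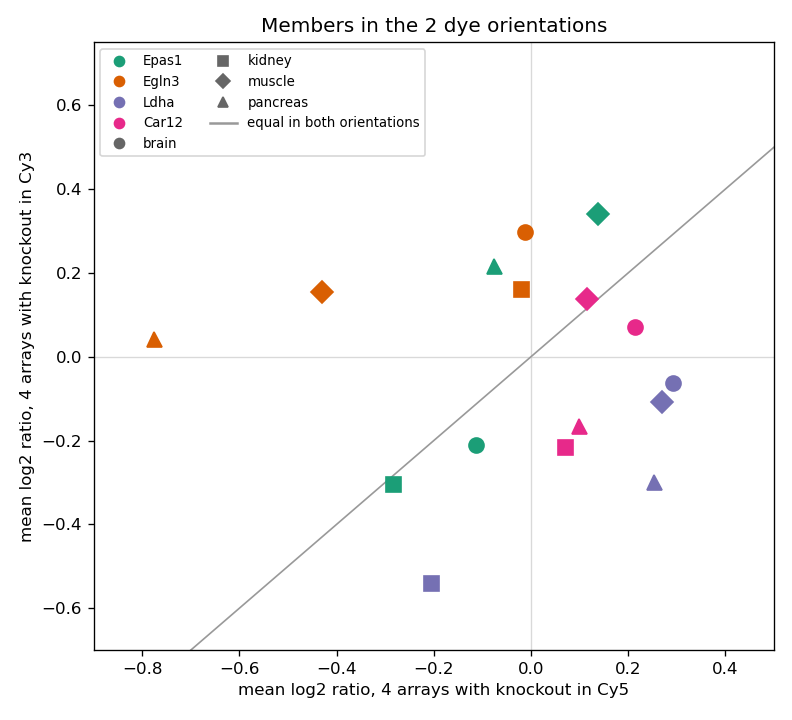
Mean log2 ratio of the 4 arrays with the knockout in Cy5 (horizontal axis) against that of the 4 arrays with it in Cy3 (vertical axis), with 1 point for each gene and tissue; points on the line are equal in both orientations. Epas1 in kidney lies nearly on the line (−0.28 and −0.30), whereas all 4 Egln3 points lie above it and all 4 Ldha points below it.

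Ldha was lower than the pool in kidney and varied widely in muscle and pancreas. The kidney animals stood at −0.62, −0.08, −0.25 and −0.54, all below 0, and the mean was −0.37 ± 0.25 (SD, n = 4; SE 0.10), or 0.772-fold. On single arrays the kidney values ran from −0.86 to 0.52, and 7 of 8 lay below 0. The exception was the Cy5 array of animal 2 at 0.52, whose Cy3 partner stood at −0.69.

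In brain Ldha stood at 0.06, 0.01, 0.21 and 0.18 (mean 0.11 ± 0.09, SD, n = 4). All 4 animals lay above 0, but the Cy5 arrays averaged 0.29 and the Cy3 arrays −0.06. In muscle the animals stood at 0.14, 0.56, −0.40 and 0.03 (mean 0.08 ± 0.40), and in pancreas at 0.19, 0.48, −0.19 and −0.56 (mean −0.02 ± 0.45). Animals in both tissues lay on either side of 0, and the mean was smaller than the SD. The order from low to high was kidney, pancreas, muscle and brain. Only brain and kidney did not overlap, with brain higher by 0.49 ± 0.22 (limma SE; 3.22% of genes) and higher in each of the 4 mice by 0.0925 to 0.725. The dye gap of Ldha ran opposite to that of Egln3: Cy5 exceeded Cy3 in all 4 tissues, by 0.33 to 0.55, as in 27.4% of genes. Turning the Cy3 arrays put Ldha at 0.17 in kidney, 0.18 in brain, 0.19 in muscle and 0.28 in pancreas. All 6 tissue pairs then overlapped, brain exceeded kidney by 0.01, and 2 of 4 kidney animals lay above 0.

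The kidney values of Epas1 and Ldha had the same pattern over animals, with animals 1 and 4 both below animals 2 and 3. This was seen after the values were known, and 16.3% of genes had it. Of the other lactate dehydrogenase genes, Ldhb, whose subunit favours the conversion of lactate to pyruvate, was also below 0 in all 4 kidney animals (−0.04, −0.13, −0.29 and −0.20; mean −0.16 ± 0.11, SD). There animal 1 was the highest rather than the lowest, and the kidney means were −0.31 in Cy5 and −0.015 in Cy3. Ldhb was below 0 in all 4 brain animals too (mean −0.22 ± 0.23; 6.73% of genes), where Ldha was above. In muscle Ldhb lay between −0.06 and −0.05 in 3 animals and at −1.28 in animal 2, and in pancreas it ranged from −0.37 to 0.78. Ldhc, the subunit of testis and sperm, was below 0 on all 8 brain arrays (mean −0.13 ± 0.11), as were 0.496% of genes. With the Cy3 arrays turned, the brain mean of Ldhc was 0.085, of opposite sign. Ldhd, which acts on D-lactate in mitochondria, was at −0.08 ± 0.06 in kidney and below 0 in 4 of 4 animals. That mean came from −0.17 in Cy5 and 0.00 in Cy3. The SD of Ldhd in pancreas was 0.15, against 0.45 for Ldha.

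Car12 had no tissue mean farther than 0.14 from the pool. The brain animals stood at −0.02, 0.10, 0.22 and 0.28 (mean 0.14 ± 0.13, SD, n = 4), with 7 of 8 arrays above 0. The muscle animals stood at 0.03, −0.00, 0.28 and 0.20 (mean 0.13 ± 0.13), with 6 of 8 arrays above 0. The kidney animals stood at −0.14, −0.06, 0.06 and −0.15 (mean −0.07 ± 0.10) and the pancreas animals at −0.00, −0.09, −0.23 and 0.18 (mean −0.03 ± 0.17). In kidney and pancreas 4 of 8 arrays lay on each side of 0. The kidney mean came from 0.07 in Cy5 and −0.22 in Cy3, and the pancreas mean from 0.10 and −0.17. The order from low to high was kidney, pancreas, muscle and brain, the same as for Ldha, and all 6 tissue pairs overlapped. Kidney was lower than brain within each of the 4 mice, by 0.122 to 0.428, and lower than muscle, by 0.056 to 0.348. Pancreas was also lower than muscle in each, by 0.017 to 0.509. The share of all genes with such an order is not given here. These orders do not hold with the Cy3 arrays turned, which put Car12 at −0.01 in muscle, 0.07 in brain, 0.13 in pancreas and 0.14 in kidney. Kidney was then the highest of the 4, above muscle in each of the 4 mice, and above 0 in all 4 animals.

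The array measured 9 other carbonic anhydrases, which speed the exchange of carbon dioxide and bicarbonate in red cells, muscle, mitochondria and epithelia. Car1, an enzyme of red cells, was below 0 in all 4 muscle animals and on 7 of 8 arrays (mean −0.21 ± 0.15, SD), opposite in sign to Car12. Car11, which lacks catalytic activity, stood at 0.15, 0.13, 0.13 and 0.18 in muscle (mean 0.15 ± 0.03), but at −0.04 in Cy5 and 0.34 in Cy3. The mitochondrial forms lay on opposite sides of 0 in muscle, Car5a at 0.58 ± 0.39 with all 4 animals above 0 and Car5b at −0.18 ± 0.11 with all 4 below. In kidney Car14, a membrane enzyme like Car12, was at 0.06 ± 0.05, above 0 in all 4 animals (10.1% of genes) while Car12 was below 0 in 3. The Car14 mean there came from 0.35 in Cy5 and −0.23 in Cy3. Car2 and Car3, abundant soluble forms, and Car15 had no tissue with all 4 animals on the same side. Car13 in pancreas held a value at the floor of the scale (an array at −16.01) and gave no usable mean.

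The 4 genes did not vary as a group in these values, on which they had also been selected. Over the 16 values of 4 animals in 4 tissues, which share animals, arrays and pool, Epas1 and Egln3 ran in opposite directions (r = −0.57, Spearman's rho = −0.61). Epas1 and Ldha had r = 0.39 and Epas1 and Car12 r = 0.33. The other pairs lay between 0.03 and 0.12. With the mean of each tissue removed, r of Epas1 and Egln3 was −0.26, and the other pairs lay between −0.31 and 0.34. The r of Epas1 and Egln3 with the Cy3 arrays turned was 0.26, of opposite sign, and the other pairs lay between 0.01 and 0.33. By correlation with the same 16 values, the named genes most like Epas1 among 7852 were Fam205c (r = 0.96), Rrp1 (0.91) and Zdhhc7 (0.91). For Egln3 they were Tmem108 (0.82), Acp2 (0.82) and Mrpl21 (0.81), for Ldha Pogz (0.93), Selenop (0.92) and Foxd1 (0.91), and for Car12 Furin (0.80), Edc3 (0.80) and Cyhr1 (0.75). None of these is on the pathway lists. Fam205c had tissue means close to those of Epas1, at −0.29 in kidney, −0.11 in brain, 0.04 in pancreas and 0.21 in muscle. Selenop, which carries selenium in plasma, had a kidney mean of −0.41, near that of Ldha. The ranking depends on the dye orientation. With the Cy3 arrays turned, an alternative added after the values were seen, 0 of these 12 genes was among the 3 most like its gene: r was 0.25 to 0.81 for those of Epas1, 0.07 to 0.67 for Egln3, 0.64 to 0.82 for Ldha and −0.36 to 0.01 for Car12.

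Across the wider pathway no gene passed the test within a tissue on the values as deposited. Of 150 other genes listed as HIF regulators or targets, 101 were on the array, and limma called 0 of them in any tissue at a Benjamini-Hochberg adjusted p under 0.05, as it called 0.00% of all genes. At an unadjusted p under 0.05, limma had 1 above and 1 below the pool of 101 in brain (all genes 2.24% above and 1.89% below), and 1 above and 7 below of 100 in kidney (4.28% and 5.00%). In muscle there were 8 above and 4 below of 100 (3.61% and 3.69%), and in pancreas 1 above and 1 below of 98 (1.34% and 1.58%). Limma called, with the Cy3 arrays turned, 2 of 100 pathway genes in muscle and 10 of 98 in pancreas at the adjusted threshold. It called 0 of them in brain and kidney, and over all genes 328 of 16662 in muscle and 2388 of 16377 in pancreas. At an unadjusted p under 0.05 the turned values gave 5 above and 4 below in brain (all genes 1133 and 1265 of 16729). In kidney they gave 6 and 11 (1259 and 1481 of 16825), and in muscle 8 and 14 (2237 and 2577 of 16662). In pancreas they gave 14 and 24 (2697 and 3395 of 16377). The median over the lists was −0.00 in brain and kidney and −0.01 in muscle and pancreas, against 0.01, 0.00, −0.02 and 0.00 over all genes. In kidney, where Epas1 and Ldha were lowest, the HIF regulators had a median of −0.06 with 10 of 16 below 0, and the glycolysis list a median of 0.00 with 10 of 21 below 0.

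**Figure D3:**
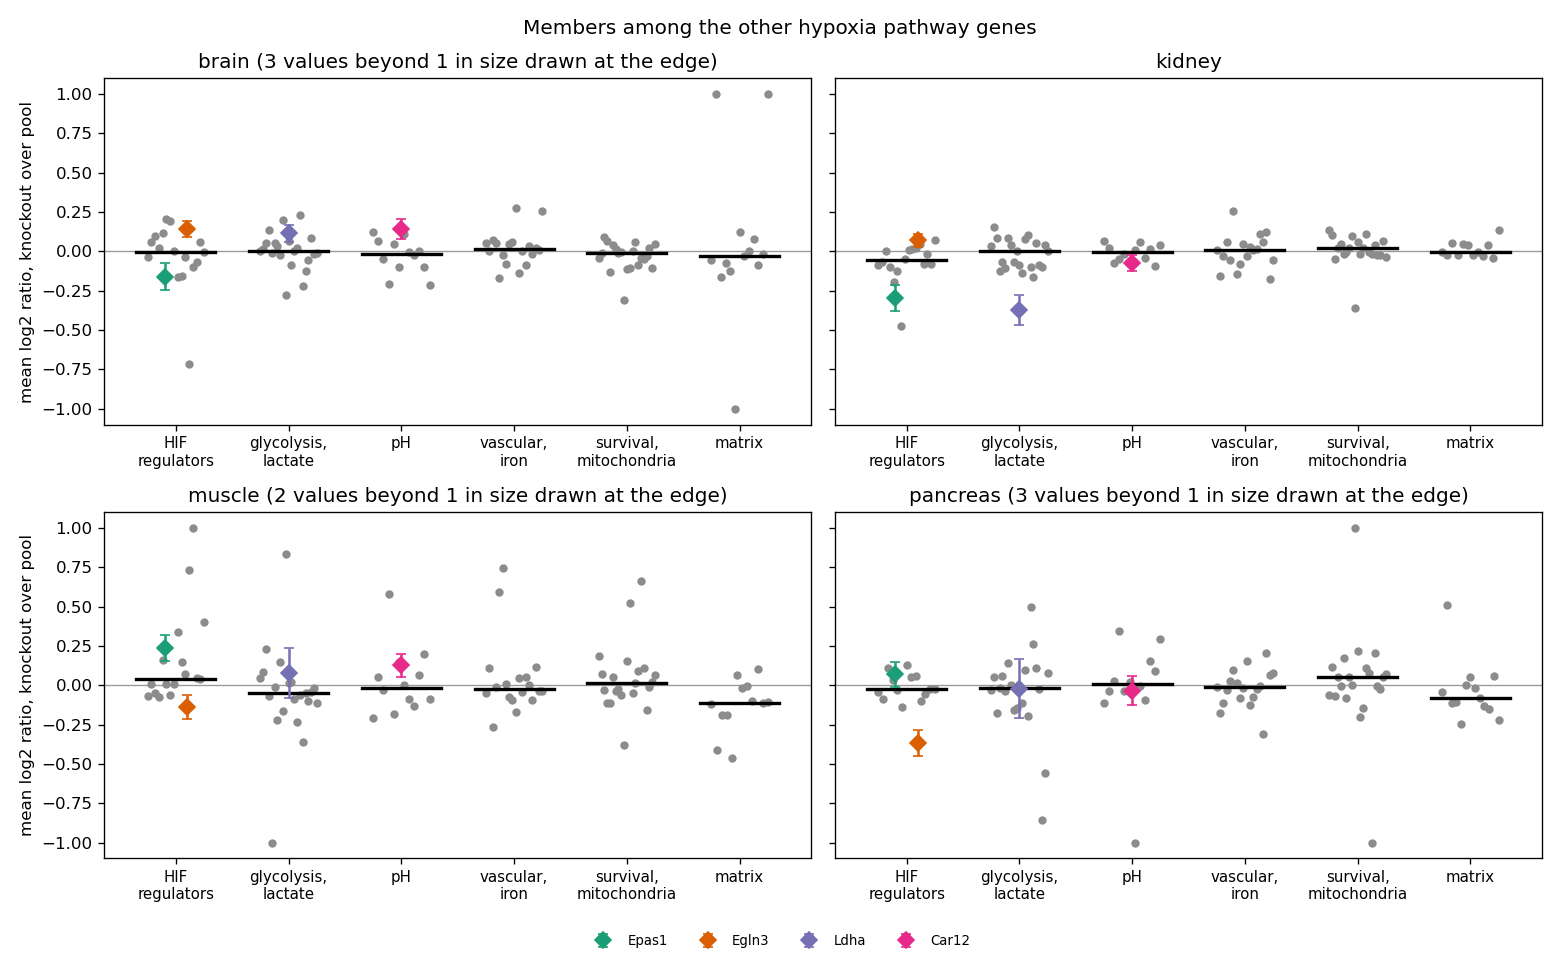
Mean log2 ratio of knockout over pool (vertical axis) of the other pathway genes by list (horizontal axis) in the 4 tissues; grey points are genes, black bars list medians and coloured diamonds the 4 described genes with the limma SE. In kidney Epas1 (−0.29) and Ldha (−0.37) lie well below the medians of their lists (−0.06 and 0.00), and in pancreas Egln3 (−0.37) lies below its list's median of −0.02.

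The genes of smallest unadjusted p with all 4 animals on the same side are given as values only, since none passed the adjusted threshold. Of these 24 means (2 of them of Ldhb), 10 kept their side of 0 with the Cy3 arrays turned. Some of the 10 then lay close to 0, as did Elob (0.0015) and Lox (−0.020) in muscle and Mmp9 in brain (0.011). Others lay farther from it, as did Pdk3 in pancreas (0.23) and Ldhb in kidney (−0.15). In kidney Bhlhe41, a repressor induced by HIF, was at −0.25, −0.10, −0.15 and −0.27 (mean −0.19 ± 0.08, SD), below 0 on all 8 arrays and equal in both dyes (−0.19 and −0.20). With the Cy3 arrays turned, the Bhlhe41 mean was 0.0056. Like Epas1 and Ldha, Bhlhe41 as deposited was lowest in animals 1 and 4. Pfkl, the liver form of phosphofructokinase, was at −0.12 ± 0.02 in kidney, from −0.25 in Cy5 and 0.01 in Cy3. Above the pool there, Hk2, an inducible hexokinase, was at 0.09 ± 0.08, the iron transporter Slc11a2 at 0.11 ± 0.14 and the lectin Os9 at 0.07 ± 0.05.

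In muscle Gapdh, the glycolytic dehydrogenase, was at 0.50, 1.53, 0.55 and 0.76 (mean 0.83 ± 0.48, SD). Elob, a partner of the von Hippel-Lindau protein, was at 0.17, 0.46, 0.35 and 0.37 (mean 0.34 ± 0.12). Both lay above 0 on all 8 muscle arrays, as did 1.56% of genes. With the Cy3 arrays turned, the means were 0.093 for Gapdh and 0.0015 for Elob. Below the pool in muscle were Plod1 (−0.41 ± 0.29) and Lox (−0.19 ± 0.09), which modify collagen, and of 12 matrix genes 10 had a mean below 0 with a median of −0.11, in a tissue where 41.6% of all genes lay above 0. In pancreas Slc16a1, which carries lactate across the cell membrane, was at −0.56 ± 0.33. Pdk3, which holds pyruvate out of the mitochondrion, was at 0.49 ± 0.50, Ero1a, an oxidase of protein folding, at 0.22 ± 0.15, and the cell cycle inhibitor Cdkn1a at 0.20 ± 0.17. The Ero1a mean came from −0.19 in Cy5 and 0.63 in Cy3. Cp, the ferroxidase ceruloplasmin, was at −0.31 ± 0.31. Ak4, a mitochondrial adenylate kinase, stood at −1.97 through 1 floor value in animal 1, while the other animals lay between −0.25 and −0.09. In brain Pdk3 was at 0.23 ± 0.16, the growth factor Tgfb3 at 0.26 ± 0.27 and the protease Mmp9 at 0.13 ± 0.09, and the HIF coactivator Ep300 ranged from −1.51 to −0.02 (mean −0.71 ± 0.70).

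Between tissues, 1 of 97 pathway genes passed. Tek, the endothelial receptor for angiopoietins, had a brain minus muscle difference of −0.77 ± 0.14 (limma SE, n = 4; adjusted p = 0.0325), where limma called 75 of 16257 genes (0.461%). The muscle animals stood at 0.21, 0.92, 0.43 and 0.82 (mean 0.60) and the brain animals at 0.08, −0.41, −0.23 and −0.13 (mean −0.17), with no overlap. The adjusted p ran from 0.00706 to 0.695 over the alternatives. With the Cy3 arrays turned the difference was 0.19, of opposite sign. Without animal 2, 3 or 4 the adjusted p was 0.599, 0.229 and 0.484, and with the animal as a block it was 0.0936. The part of endothelial cells in the Tek value was not tested. The other comparisons with calls over all genes were kidney against muscle, with 2 genes (0.0123%), and muscle against pancreas, with 94 (0.578%), and neither included a pathway gene. Limma called 0.00% of genes between brain and kidney, brain and pancreas, or kidney and pancreas.

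Probes are numbered on the array, and Epas1, Egln3 and Ldha lie among the last 10% of numbers. The median of the 100 probes of nearest number was taken as a local level, a measure added after the values were seen. Around Epas1 it was 0.11 in muscle, against 0.24 for the gene, and 0.01 in kidney, against −0.29. Around Ldha it was 0.18 in muscle, −0.10 in brain and 0.03 in kidney. Around Egln3 and Car12 it stayed between −0.01 and 0.04 in all 4 tissues. With the local level subtracted, Epas1 was at −0.31 in kidney and 0.13 in muscle, Ldha at −0.41 in kidney and 0.21 in brain, and Egln3 at −0.37 in pancreas. The Epas1 value in brain was then −0.08 in place of −0.16. Ldha was at −0.10 in muscle in place of 0.08, and at 0.05 in pancreas in place of −0.02, so its sign turned in both. The Epas1 values in muscle and brain thus lay nearer 0, while the kidney values of Epas1 and Ldha did not. Tek lies in the same stretch, with a local level of 0.09 in muscle and −0.08 in brain.

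**Figure D4:**
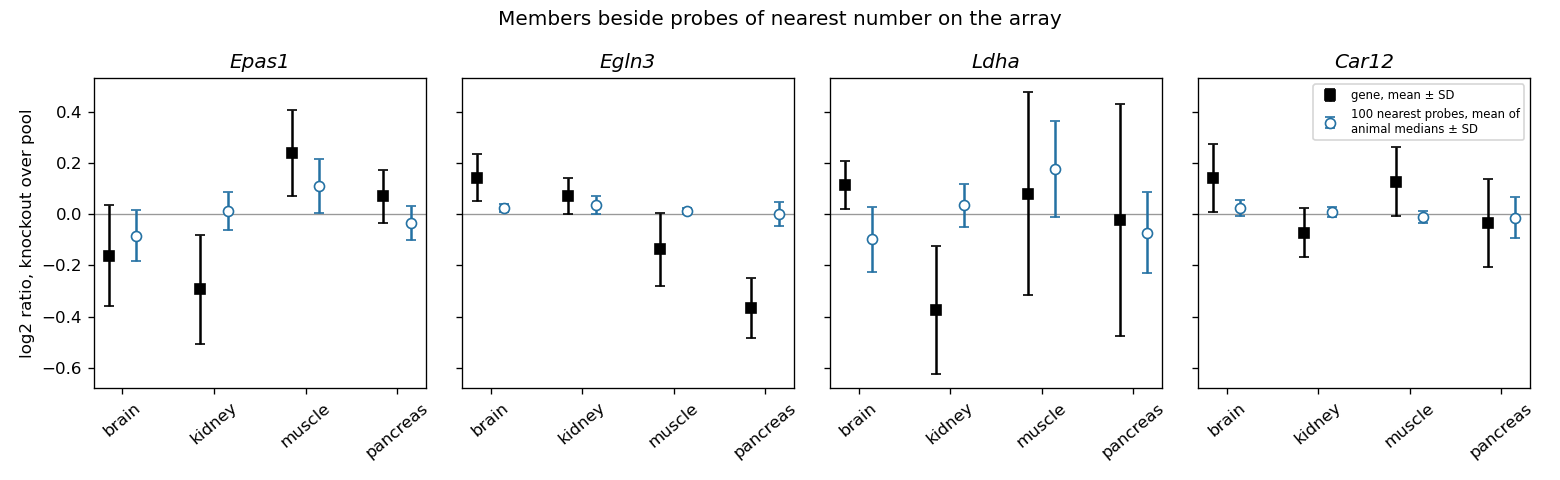
Mean log2 ratio of knockout over pool ± SD over 4 animals (vertical axis) by tissue (horizontal axis) for each gene (black squares) and for the median of the 100 probes nearest in number (open circles). The open circles around Epas1 and Ldha lie above 0 in muscle (0.11 and 0.18) and below 0 in brain (−0.08 and −0.10), and those around Egln3 and Car12 stay within 0.04 of 0.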

How the data were processed

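The authors deposited a log2 ratio for each probe of each 2-colour cDNA array. The sources used here name no scanner, background correction or normalisation. That the base is 2 was taken from how large the floor values are. The direction, likely knockout over pool, rests on the design text and channel labels, and whether the Cy3 arrays were already turned is not settled: if they were not, the values with the Cy3 arrays turned apply. Values beyond 8 in size (1844 of 655162) lie at a floor and were kept. Of these, 920 were positive with the knockout in Cy5 and 924 were negative with it in Cy3. If all deposited ratios are knockout over pool, the Cy3 channel was the low one each time. If the Cy3 arrays were not turned, the pool was the low sample each time.

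Gene names came from the array's probe annotation. Probes of a symbol were averaged (17053 symbols and unnamed probes, called genes), then the 2 arrays of an animal, both required. Limma (version 3.58.1, R 4.3.3; lmFit, eBayes) tested the mean against 0 per tissue, two-sided and with 3 animals or more, and the 6 tissue differences in 1 fit. P-values were Benjamini-Hochberg adjusted over all genes (threshold 0.05). The fits were tested on simulated data. The replicates are separate animals. Tissues are paired by animal per the labels, and the deviations of an animal correlated between tissues at r from −0.02 to 0.03.

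The genes described and all lists were chosen with earlier results of these data known. Named genes were the 4 genes, their paralogs, pathway genes past the adjusted threshold, per tissue the 3 pathway genes above and the 3 below 0 of smallest p with 1 sign in all 4 animals, and the 3 genes most like each. Shares of genes are given beside counts as background. Alternatives were turned Cy3 arrays, floor values as missing, centred or scaled arrays, animals with 1 array kept, probes on all 32 arrays, single or median probes, robust moderation, a fit of 8 arrays with a dye term, leaving out each animal, the animal as replicate block, and the local level subtracted. The last, and the turned correlations and tissue separations, were added after seeing the data. Signal over background was not used here.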

Additional observations from a re-analysis of the deposited data

Results flagged for a closer look

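The 4 animals of 2 tissues lay on opposite sides of the pool in 4 of the 24 pairings of a described gene and 2 tissues, and these differences were not tested because the genes were chosen with their ratios known. Epas1 was below 0 in all kidney animals and above 0 in all muscle animals, a difference of −0.53 (kidney minus muscle) on the log2 scale. Egln3 was above 0 in all brain animals and below 0 in all animals of muscle (difference 0.28) and of pancreas (0.51). Ldha was above 0 in all brain animals and below 0 in all kidney animals (0.49). The share of all genes on opposite sides is not given here. Animals without overlap in the same direction, a looser condition, were seen for 3.21% of genes with kidney below muscle. The shares were 4.21% for brain above muscle, 1.93% for brain above pancreas and 3.22% for brain above kidney. With the Cy3 arrays turned, 0 of these 4 pairings had all animals of the tissues on opposite sides.

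An animal stood far from the other 3 in 7 of 94 groups, where chance marks about 1 in 20. None was a value of the 4 described genes. Low animals were Egln2 in kidney (animal 4 at −1.98, the others from −0.03 to 0.09), Ldhb in muscle (animal 2 at −1.28, the others from −0.06 to −0.05), Car1 in pancreas (animal 1 at −0.67, the others from −0.01 to 0.12) and Ak4 in pancreas (animal 1 at −7.46 through a floor value, the others from −0.25 to −0.09). High animals were Car2 in muscle (animal 3 at 0.26, the others from −0.03 to 0.00), Car5b in pancreas (animal 3 at 0.22, the others from −0.16 to −0.10) and Slc11a2 in kidney (animal 1 at 0.33, the others from 0.03 to 0.05).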

How the results depend on the processing

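Of 176 recomputed values of the 4 genes, 162 moved by less than the SD between animals. Part of these could not move, because the 4 genes have no floor or missing values. Leaving out 1 of 4 animals also cannot shift a mean by as much as that SD. The count of 162 is therefore no measure of how stable the values are. Treating floor values as missing, keeping animals with 1 array and using only probes on every array left the 4 genes unchanged. Those settings therefore did not test the values of the 4 genes. Turning the Cy3 arrays moved the most: Epas1 to −0.10 in muscle, 0.0097 in kidney, 0.049 in brain and −0.15 in pancreas, Egln3 to −0.16 in brain, −0.091 in kidney and −0.29 in muscle, Ldha to 0.17 in kidney, and Car12 to 0.14 in kidney and −0.012 in muscle. It gave 1 call over all genes in brain, 328 in muscle and 2388 in pancreas, of which the pathway lists held 2 in muscle and 10 in pancreas. Between tissues it gave 1 call (0 in the lists) for brain minus muscle, 1510 (5) for brain minus pancreas, 0 for kidney minus muscle, 355 (2) for kidney minus pancreas and 5 for muscle minus pancreas, and Tek at 0.19. Scaled arrays put Epas1 at −0.55 and Ldha at −0.67 in kidney and Egln3 at −0.22 in pancreas. They gave 16 calls (0 in the lists) for brain minus muscle, 0 for kidney minus muscle and 0 for muscle minus pancreas, with Tek at −0.82. Subtracting the local level, chosen after seeing the data, put Ldha at 0.21 in brain. The cause was not tested for any of these.

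With floor values as missing there was 1 call in kidney, 114 (2 in the lists) for brain minus muscle and 151 for muscle minus pancreas. Centred arrays gave 3 in the lists for brain minus muscle, and probes on all 32 arrays 135 and 3. Animals with 1 array kept gave 0 for kidney minus muscle and 54 for muscle minus pancreas. Robust moderation gave 1 call in kidney, and the 8-array fit 7 in kidney and 2 in muscle. With the animal as a replicate block there were 0 calls (0 in the lists) for brain minus muscle, 0 for kidney minus muscle and 24 for muscle minus pancreas, and Tek kept its value of −0.77 without passing. The block changed no other call.

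Leaving out 1 animal at a time gave 0 to 223 calls for brain minus muscle (0 to 4 in the lists), 0 to 44 for kidney minus muscle, 1 to 115 for muscle minus pancreas, 0 to 1 for brain minus kidney, 0 to 7 for brain minus pancreas and 0 to 3 for kidney minus pancreas. It gave 0 to 1 in brain and 0 to 1 in muscle, and Tek from −0.98 to −0.58. The sign of Ldha in muscle (−0.08 to 0.24) and pancreas (−0.19 to 0.16) and of Car12 in pancreas (−0.11 to 0.03) turned with 1 animal left out. Each gene has 1 probe, so single and median probes repeat the reported values. With 4 animals a tissue, the number of animals limits the precision.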
